A study of Mus musculus with 8 samples.

Results

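The genes described here are those of cholesterol synthesis, of its control by the transcription factor SREBP2, and of sterol handling in the cell, measured in liver tumors and in adjacent liver of the same mice. They were taken from a list of 33 genes by symbol, and 29 of them, among 19938 genes with a probe of their own, were measured by a probe that the array annotation gives to that gene alone. Where a gene had several such probes, the one of highest mean level across the 8 arrays stood for it. The 29 genes comprise 18 synthesis enzymes (7 of the mevalonate arm and 11 of the sterol arm), 6 genes of SREBP2 control and 5 sterol handling genes. Acat2, Soat1 and Soat2 were not analysed here, and Mbtps2 was seen only through a probe that it shares with Yy2.

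Both groups came from the same 4 mice, males of the strain C57BL/6J called M24, M48, M50 and M60. Each had been injected, when 2 to 3 months old, with a vector of adeno-associated virus (AAV), lived on a normal diet, and was necropsied 18 months later. The tumor group is 4 samples labelled hepatocellular carcinoma, and the adjacent group is 4 samples labelled adjacent normal liver, 1 of each per mouse. The adjacent samples therefore share the vector and the age of the tumors, the gene carried by the vector is not given in the sources used here, and mice without vector were not analysed here. Each sample has 1 array, the small number of arrays limits precision, and a level is the log2 value the authors deposited.

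Cells make cholesterol from acetyl-CoA. In the mevalonate arm, acetyl-CoA units are built into isoprene units and then into farnesyl diphosphate, which also feeds protein prenylation, dolichol and ubiquinone. In the sterol arm, farnesyl diphosphate is condensed to squalene, closed into lanosterol and trimmed to cholesterol. SREBP2, encoded by Srebf2, is made as a membrane protein of the endoplasmic reticulum (ER): when sterols are low, its escort SCAP carries it to the Golgi, where a pair of proteases release the part that enters the nucleus and turns on the genes of synthesis and uptake. When sterols are high, INSIG proteins hold SCAP and SREBP2 in the ER. The liver is a main site of this synthesis and also clears cholesterol by export into bile and by conversion to bile acids.

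All 29 measured genes passed the filter on low values, the lowest of them with a mean level of 6.67. In the fit over 11963 genes, 20 of the 29 rose in tumor and 1 fell at an adjusted p under 0.05, while 16.3% of all tested genes rose and 15.7% fell (31.9% in either direction). Of the 18 enzymes, 16 rose and none fell, and the same 16 were higher in tumor in every mouse, as were 24.6% of all tested genes; of the 6 control genes, 3 rose; of the 5 handling genes, Npc2 rose and Npc1 fell. The median difference between tumor and adjacent liver was 1.44 on the log2 scale over the enzymes, 0.44 over the control genes and -0.18 over the handling genes, beside 0.0008 over all tested genes. In 13 of the 18 enzymes the call came with a rise of at least 2-fold, which 4.56% of all tested genes reached. These are tissue pieces, in which a change in the number of cells of a type and a change in RNA per cell cannot be told apart.

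Hepatocyte markers were high in both tissues: over 6 markers the list mean was 13.43 to 13.61 in adjacent liver and 13.44 to 13.66 in tumor. These levels lie near the highest value of each array (14.37 to 14.49), and whether probes at such levels follow the amount of RNA was not tested. Of the 6, Apoa1 rose, as did 16.3% of all tested genes. Among markers of other cells the calls were as follows, beside 16.3% of all tested genes that rose and 15.7% that fell. Of the stellate and fibroblast markers 4 of 8 rose (list mean 7.02 to 7.93 in adjacent liver, 8.13 to 8.52 in tumor), of the endothelial markers 3 of 7 (7.48 to 7.77, then 8.09 to 8.65) and of the cholangiocyte markers 2 of 4 (5.29 to 5.42, then 5.54 to 6.70). The stellate markers that rose were Col1a1, Col3a1, Acta2 and Pdgfrb. Reln (0.23), Des (-0.18), Lrat (-0.37) and Dcn (-0.25) did not pass the test. The list mean of 5 cycling cell markers was 4.07 to 4.38 in adjacent liver and 4.92 to 6.01 in tumor. Of these, Bub1 did not pass the filter, and Mki67, Top2a and Aurkb passed it only through tumor, so their calls are not counted. Of 8 macrophage and Kupffer cell markers, Cd68 rose and Clec4f, Marco and Timd4 fell (7.14 to 9.32, then 7.35 to 8.95), and none of 4 tested lymphocyte markers passed the test (over all 8 measured, 4.11 to 4.58, then 4.44 to 5.74). The part of these cells in the differences below was not tested.

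Stretches of reference sequence just upstream of 5 enzymes that rose, and of Ebp, an enzyme that did not pass the test, hold CCAAT letters. They are from RefSeq, build GRCm38.p6, written 5′ to 3′ on the strand of the gene, and lie at chr13:119690161-119690320 (Hmgcs1, plus strand), chr5:114444074-114444263 (Mvk, plus), chr10:76531445-76531564 (Lss, plus), chrX:72918401-72918520 (Nsdhl, plus), chr5:4104698-4104817 (Cyp51, minus) and chrX:8193513-8193632 (Ebp, minus). Capitals mark CCAAT, the letters read by NF-Y, a factor that works beside SREBP2, on either strand (so ATTGG too), and in Hmgcs1 also TCACNCCAC, the core of a sterol regulatory element.
Hmgcs1: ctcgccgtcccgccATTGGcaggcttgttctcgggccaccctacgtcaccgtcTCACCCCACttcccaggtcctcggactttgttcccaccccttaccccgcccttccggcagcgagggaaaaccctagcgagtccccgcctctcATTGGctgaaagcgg
Mvk: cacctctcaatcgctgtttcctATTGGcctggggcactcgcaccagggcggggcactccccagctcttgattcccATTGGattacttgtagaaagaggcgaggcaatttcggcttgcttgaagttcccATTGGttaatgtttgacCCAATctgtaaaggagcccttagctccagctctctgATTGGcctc
Lss: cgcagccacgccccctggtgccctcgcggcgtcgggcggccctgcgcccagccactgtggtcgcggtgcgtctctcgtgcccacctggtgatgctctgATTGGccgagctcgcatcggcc
Nsdhl: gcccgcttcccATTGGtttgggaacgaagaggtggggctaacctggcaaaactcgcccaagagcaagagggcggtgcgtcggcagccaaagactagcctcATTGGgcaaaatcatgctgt
Cyp51: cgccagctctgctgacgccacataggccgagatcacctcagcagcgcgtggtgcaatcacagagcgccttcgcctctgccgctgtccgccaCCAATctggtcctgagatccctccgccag
Ebp: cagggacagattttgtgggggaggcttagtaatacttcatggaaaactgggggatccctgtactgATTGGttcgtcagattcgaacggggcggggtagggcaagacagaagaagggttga

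The Mvk stretch is the whole interval of 190 bases between Mvk and its neighbour Mmab and holds CCAAT letters at 5 places. A window of 250 bases upstream of the start was in the reference table for 24 of the 29 genes. Fdps, Fdft1, Sqle, Stard4 and Npc1 had none and were not searched. For a gene with several windows, the window with the most matches was counted. CCAAT was in the window of all 15 enzymes that have one, among them Ebp and Ggps1, which did not pass the test, and in 39.5% of 9569 tested genes. At least 2 matches were found in 66.7% of those enzymes and in 14.6% of tested genes. TCACNCCAC was in 1 of the 24 windows, that of Hmgcs1 at -137 to -129 relative to the start, and in 1.29% of tested genes. The longer SRE-1 letters, every match of which also holds TCACNCCAC, were in 0 of the 24 and in 0.0627% of tested genes. GGGCGG, the letters read by Sp1, were in 86.7% of the enzymes and in 62.6% of tested genes. All motifs were searched on both strands, and a match is a run of letters and no measured binding.

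**Figure D1:**
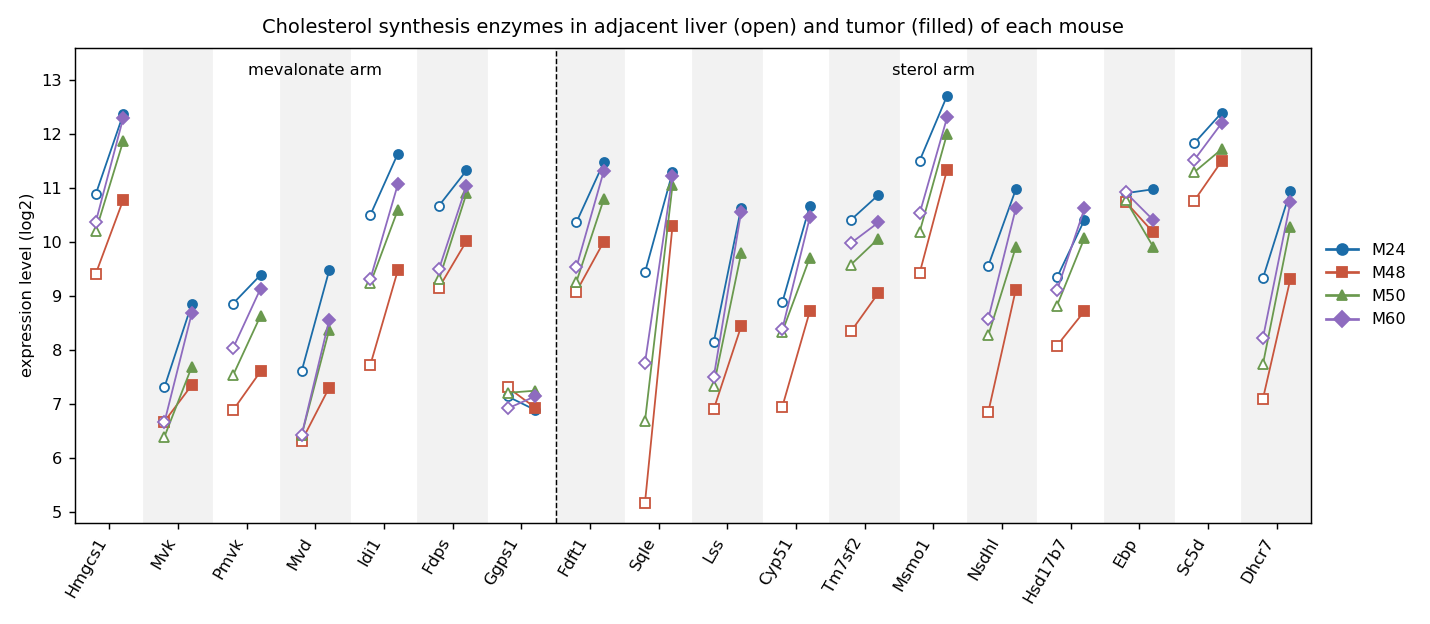
Level (log2, vertical axis) of the 18 measured synthesis enzymes, in pathway order, in adjacent liver (open symbols) and tumor (filled) of each mouse, with a line joining the samples of a mouse. For 16 enzymes every line goes up from adjacent liver to tumor, Ggps1 and Ebp have no such pattern, and Sqle has the longest line in M48 (5.12), M50 (4.36) and M60 (3.46), but not in M24 (1.85).

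The mevalonate arm was higher in tumor at 6 of its 7 measured steps, with a median difference of 1.39 over the arm (1.13 for M24, 0.86 for M48, 1.36 for M50, 1.75 for M60). Hmgcs1, the synthase that makes HMG-CoA, stood at 10.88 (M24), 9.41 (M48), 10.20 (M50) and 10.37 (M60) in adjacent liver and 12.36, 10.78, 11.87 and 12.29 in the tumors, given here and below in the same order of mice. Every tumor was above its own adjacent sample, yet the lowest tumor, that of M48, was just below the adjacent sample of M24, so the groups overlapped by 0.11. The difference was 1.61 (SE 0.110, n = 4 pairs, 3.05-fold, limma adjusted p = 0.000338).

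Mvk, the first of the kinases that add phosphate to mevalonate, was at 7.31 (M24), 6.67 (M48), 6.39 (M50) and 6.66 (M60) in adjacent liver and at 8.85, 7.35, 7.69 and 8.68 in the tumors. The groups did not overlap, though by a margin of only 0.04, and the rise was smallest in M48 (0.68) and largest in M60 (2.03). The difference was 1.39 (SE 0.204, 2.62-fold, adjusted p = 0.00372). Pmvk, which adds the next phosphate, was at 8.86 (M24), 6.88 (M48), 7.53 (M50) and 8.03 (M60) in adjacent liver and at 9.39, 7.60, 8.63 and 9.13 in the tumors, a difference of 0.86 (SE 0.122, adjusted p = 0.00324). Its groups overlapped widely, the mice differed from each other by more than tumor differed from liver, and with the mouse left out of the model its adjusted p was 0.207.

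Mvd, the decarboxylase that makes isopentenyl diphosphate, was at 7.61 (M24), 6.31 (M48), 6.42 (M50) and 6.43 (M60) in adjacent liver and at 9.47, 7.30, 8.37 and 8.55 in the tumors. The adjacent sample of M24 stood above the other 3, which lay within 0.11 of each other, and the difference was 1.73 (SE 0.187, 3.32-fold, adjusted p = 0.00135). Idi1, the isomerase that follows, was at 10.50 (M24), 7.72 (M48), 9.23 (M50) and 9.31 (M60) in adjacent liver and at 11.63, 9.47, 10.59 and 11.07 in the tumors. Its difference was 1.50 (SE 0.125, 2.83-fold, adjusted p = 0.000569). A second Idi1 probe gave a mean difference of 1.51, and without the mouse in the model the adjusted p was 0.0930.

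Fdps, which makes farnesyl diphosphate, was at 10.67 (M24), 9.15 (M48), 9.31 (M50) and 9.50 (M60) in adjacent liver and at 11.32, 10.02, 10.90 and 11.04 in the tumors. The difference was 1.16 (SE 0.176, 2.24-fold, adjusted p = 0.0041), and it was larger in M50 (1.59) and M60 (1.54) than in M24 (0.65) and M48 (0.86). Ggps1, which lengthens farnesyl to geranylgeranyl diphosphate and so leads away from sterols, was at 7.14 (M24), 7.30 (M48), 7.20 (M50) and 6.91 (M60) in adjacent liver and at 6.89, 6.93, 7.24 and 7.14 in the tumors. Tumor was higher in 2 mice and lower in the other 2, and the difference of -0.09 (95% interval -0.38 to 0.20, adjusted p = 0.614) did not pass the test.

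In all, 10 of the 11 measured genes of the sterol arm rose, with a median difference of 1.68 over the arm (1.20 for M24, 1.54 for M48, 1.54 for M50, 1.79 for M60). Fdft1, squalene synthase and the first step given over to sterols, was at 10.36 (M24), 9.08 (M48), 9.26 (M50) and 9.53 (M60) in adjacent liver and at 11.48, 10.01, 10.79 and 11.31 in the tumors. The difference was 1.34 (SE 0.150, 2.53-fold, adjusted p = 0.00151), and a second Fdft1 probe gave 1.36. Sqle, squalene epoxidase and a rate-limiting step of the sterol arm, was at 9.44 (M24), 5.17 (M48), 6.69 (M50) and 7.76 (M60) in adjacent liver and at 11.29, 10.29, 11.05 and 11.22 in the tumors. Adjacent livers were spread over 4.27 log2 units while the tumors lay within 0.99 of each other, and the groups did not overlap.

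The Sqle difference was 1.85 (M24), 5.12 (M48), 4.36 (M50) and 3.46 (M60), so it was smallest in the mouse with the highest adjacent level and largest in the mouse with the lowest, and the adjacent level is itself a term of the difference. The mean difference was 3.70 (SE 0.479, 95% interval 2.55 to 4.84, adjusted p = 0.00245), or 13.0-fold with an interval from 5.87-fold to 28.6-fold. Lss, which closes the ring to lanosterol, was at 8.14 (M24), 6.90 (M48), 7.33 (M50) and 7.49 (M60) in adjacent liver and at 10.63, 8.44, 9.79 and 10.56 in the tumors. Its groups did not overlap either, and the difference was 2.39 (SE 0.225, 5.24-fold, adjusted p = 0.000875), smallest in M48 at 1.54.

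The next enzymes strip methyl groups from lanosterol. Cyp51, the lanosterol demethylase, was at 8.88 (M24), 6.95 (M48), 8.34 (M50) and 8.39 (M60) in adjacent liver and at 10.67, 8.71, 9.71 and 10.45 in the tumors. Its difference was positive in every mouse, from 1.37 in M50 to 2.06 in M60, with a mean of 1.75 (SE 0.120, 3.36-fold, adjusted p = 0.000339). Tm7sf2, a sterol reductase whose step can also be carried out by the lamin B receptor, was at 10.41 (M24), 8.34 (M48), 9.58 (M50) and 9.98 (M60) in adjacent liver and at 10.87, 9.06, 10.06 and 10.36 in the tumors. The difference of 0.51 (SE 0.0867, 1.42-fold, adjusted p = 0.00623) was the smallest of the 16 enzymes that rose, and without the mouse in the model the adjusted p was 0.465.

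Msmo1, a methyl oxidase, was at 11.51 (M24), 9.42 (M48), 10.19 (M50) and 10.53 (M60) in adjacent liver and at 12.71, 11.34, 12.01 and 12.31 in the tumors, a difference of 1.68 (SE 0.132, 3.20-fold, adjusted p = 0.000465). Nsdhl, the dehydrogenase of the same complex, was at 9.56 (M24), 6.85 (M48), 8.27 (M50) and 8.58 (M60) in adjacent liver and at 10.97, 9.12, 9.90 and 10.62 in the tumors, a difference of 1.84 (SE 0.149, 3.57-fold, adjusted p = 0.000526). Both rose most in M48, whose adjacent liver was lowest for each, and the adjacent level is itself a term of the difference. Hsd17b7, the ketone reductase of the complex, was at 9.34 (M24), 8.08 (M48), 8.82 (M50) and 9.10 (M60) in adjacent liver and at 10.41, 8.72, 10.07 and 10.62 in the tumors. Its difference was 1.12 (SE 0.144, 2.17-fold, adjusted p = 0.00237), least in M48 (0.64), and without the mouse in the model the adjusted p was 0.0756.

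Ebp, the isomerase that shifts a double bond in the sterol ring, was not among the genes that rose. It was at 10.90 (M24), 10.74 (M48), 10.77 (M50) and 10.92 (M60) in adjacent liver and at 10.98, 10.18, 9.91 and 10.41 in the tumors. Adjacent livers lay within 0.17 of each other, tumor was lower in M48, M50 and M60, and M24 showed a difference of 0.07. The mean of -0.47 (SE 0.150, 95% interval -0.82 to -0.11, adjusted p = 0.0563) missed the threshold, which it passed without M24 (-0.64, adjusted p = 0.0186) and with each array centred on its median (-0.52, adjusted p = 0.0432). Ebp is thus the only sterol arm gene measured here whose interval lay below 0.

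Sc5d, the desaturase after Ebp, was at 11.83 (M24), 10.76 (M48), 11.29 (M50) and 11.52 (M60) in adjacent liver and at 12.39, 11.50, 11.72 and 12.20 in the tumors. The difference was 0.60 (SE 0.0884, 1.52-fold, adjusted p = 0.00368), positive in every mouse, and without the mouse in the model the adjusted p was 0.113. Dhcr7, which makes cholesterol from 7-dehydrocholesterol, was at 9.33 (M24), 7.10 (M48), 7.74 (M50) and 8.22 (M60) in adjacent liver and at 10.95, 9.32, 10.28 and 10.74 in the tumors. The lowest tumor, M48, was 0.01 below the highest adjacent liver, M24, and the difference was 2.22 (SE 0.162, 4.67-fold, adjusted p = 0.000387).

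**Figure D2:**
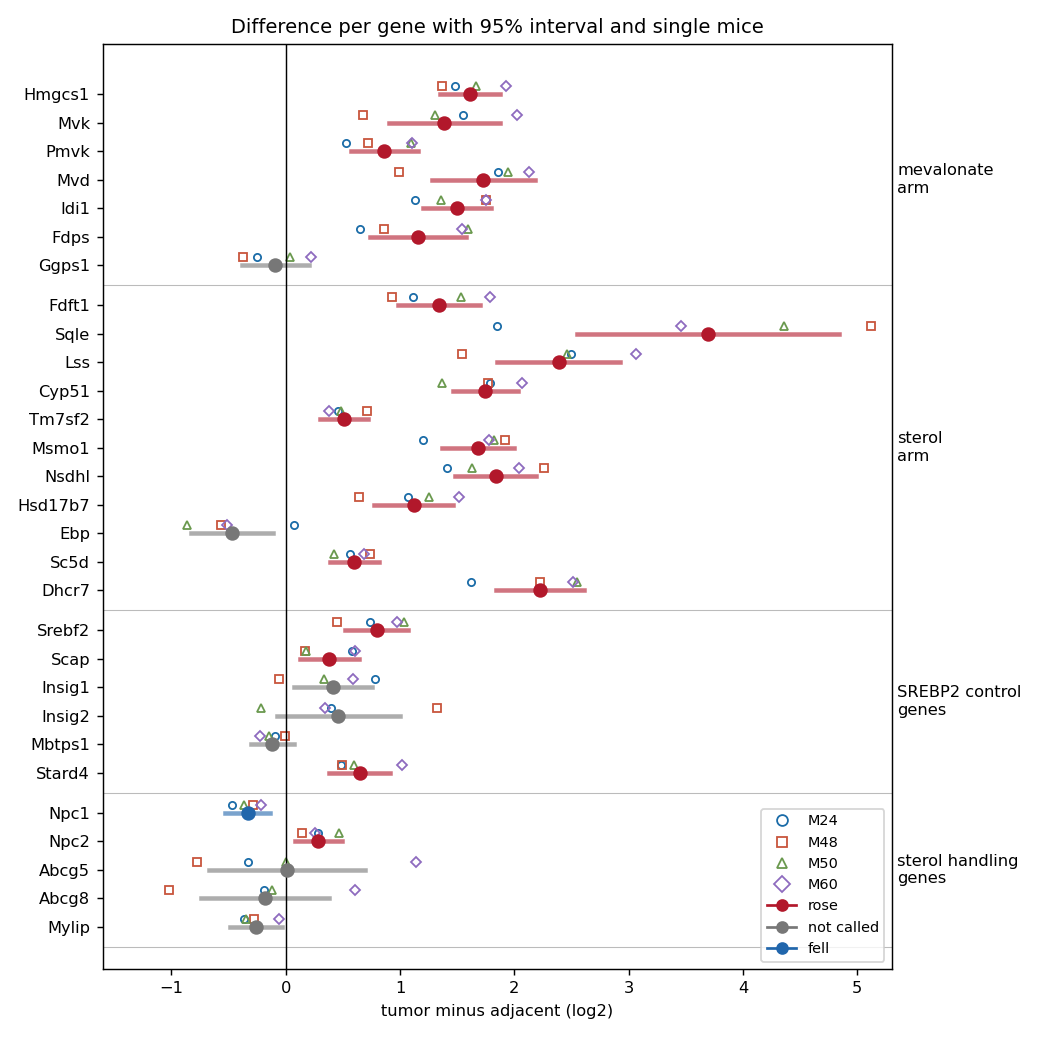
Tumor minus adjacent liver (log2, horizontal axis) for the 29 measured genes, grouped by role, with filled points for the fitted difference, bars for its 95% interval and open symbols for single mice. The 16 enzymes that rose lie between 0.51 (Tm7sf2) and 3.70 (Sqle), and the control and handling genes lie between -0.33 (Npc1) and 0.80 (Srebf2).

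Of the 6 measured control genes, Srebf2, Scap and Stard4 rose. Srebf2, which encodes SREBP2, was at 8.24 (M24), 8.03 (M48), 7.92 (M50) and 8.18 (M60) in adjacent liver and at 8.98, 8.47, 8.95 and 9.15 in the tumors. Every tumor was above every adjacent sample, and the difference was 0.80 (SE 0.116, 1.74-fold, adjusted p = 0.00358). Another probe that carries the Srebf2 symbol together with those of Ube3a, C230091D08Rik and P3h3 differed by -0.29 and cannot be read as Srebf2 alone. Across all 29 genes, 4 (Srebf2, Mvk, Sqle and Lss) had all tumors above all adjacent samples, against 14.9% of all tested genes.

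Scap, the escort of SREBP2, was at 8.74 (M24), 8.30 (M48), 8.52 (M50) and 8.64 (M60) in adjacent liver and at 9.32, 8.47, 8.70 and 9.24 in the tumors. The difference of 0.38 (SE 0.109, 1.31-fold, adjusted p = 0.0373) came mostly from M24 (0.58) and M60 (0.60) and was 0.17 in M48 and 0.18 in M50. The call was lost without M24 (adjusted p = 0.137), M50 (0.0521) or M60 (0.151), and under 3 of the other 7 alternatives. Stard4, a carrier that moves cholesterol to the ER and is itself an SREBP2 target, was at 9.48 (M24), 8.58 (M48), 8.95 (M50) and 9.02 (M60) in adjacent liver and at 9.97, 9.07, 9.54 and 10.04 in the tumors. Its difference was 0.65 (SE 0.112, 1.57-fold, adjusted p = 0.00654), and without the mouse in the model the adjusted p was 0.0771.

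The INSIG genes, whose products hold SREBP2 in the ER, did not pass the test. Insig1, also an SREBP2 target, was at 11.66 (M24), 11.58 (M48), 11.25 (M50) and 11.57 (M60) in adjacent liver and at 12.45, 11.52, 11.59 and 12.16 in the tumors. Tumor was higher in M24, M50 and M60 but not in M48, and the mean of 0.41 (SE 0.143, 95% interval 0.07 to 0.76, adjusted p = 0.0700) became 0.57 with an adjusted p of 0.0183 without M48. Insig2, which in liver is made in part from a promoter that answers to fasting, was at 10.99 (M24), 10.15 (M48), 11.51 (M50) and 11.14 (M60) in adjacent liver and at 11.39, 11.47, 11.29 and 11.49 in the tumors. Here M48 had the lowest adjacent level and the largest difference (1.32), of which that level is itself a term. M50 went down (-0.21), and the mean of 0.46 (SE 0.226, 95% interval -0.08 to 1.003, adjusted p = 0.169) was left with a wide interval. Set against each other within mice, the Insig1 difference minus the Insig2 difference was 0.39 (M24), -1.38 (M48), 0.55 (M50) and 0.24 (M60). The mean was -0.05 ± 0.90 (SD, n = 4; two-sided exact sign-flip permutation p = 1), and without M48 it was 0.39.

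Of the proteases that cut SREBP2, Mbtps1 was at 8.89 (M24), 8.90 (M48), 8.98 (M50) and 9.10 (M60) in adjacent liver and at 8.79, 8.90, 8.84 and 8.87 in the tumors. The values hardly differed, tumor was lower in all 4 mice, and the difference was -0.12 (95% interval -0.31 to 0.07, adjusted p = 0.308). The probe shared by Mbtps2 and Yy2 was higher in tumor by 0.38 (M24), 0.38 (M48), 0.57 (M50) and 0.52 (M60), and was not tested because it cannot be given to either gene.

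Among the handling genes, the partners that pass cholesterol out of the lysosome went in opposite directions. Npc1, the membrane transporter, was at 9.97 (M24), 10.01 (M48), 9.83 (M50) and 9.81 (M60) in adjacent liver and at 9.50, 9.73, 9.46 and 9.59 in the tumors. All tumors were below all adjacent samples, as in 15.6% of all tested genes, and the level fell by 0.33 (SE 0.0810, 1.26-fold lower, adjusted p = 0.0221). Npc2, the soluble carrier that hands cholesterol to NPC1, was at 8.80 (M24), 8.83 (M48), 8.41 (M50) and 8.48 (M60) in adjacent liver and at 9.08, 8.97, 8.88 and 8.74 in the tumors. It was higher in tumor in all 4 mice, with overlap between the groups and a difference of 0.29 (SE 0.0862, 1.22-fold, adjusted p = 0.0449).

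The Npc1 difference minus the Npc2 difference was -0.75 (M24), -0.42 (M48), -0.83 (M50) and -0.47 (M60), with a mean of -0.62 ± 0.20 (SD, n = 4). It was negative in all 4 mice, and the two-sided exact sign-flip permutation p of 0.125 is the smallest that 4 pairs can give. The Npc1 call was lost without M24 (adjusted p = 0.0894), M50 (0.0678) or M60 (0.0600), and the Npc2 call without M24 (0.122), M50 (0.142) or M60 (0.131) and under 4 of the other 7 alternatives, each time with the direction kept. NPC2 is also abundant in macrophages, whose marker Cd68 rose while Clec4f, Marco and Timd4 fell, and the part of these cells in the Npc2 difference was not tested.

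Abcg5 and Abcg8 encode the partner subunits of the transporter that exports sterols into bile, and they share a promoter region. Abcg5 was at 9.22 (M24), 10.95 (M48), 9.89 (M50) and 9.61 (M60) in adjacent liver and at 8.90, 10.18, 9.89 and 10.75 in the tumors. Abcg8 was at 8.80 (M24), 10.42 (M48), 9.69 (M50) and 9.73 (M60) in adjacent liver and at 8.61, 9.40, 9.58 and 10.34 in the tumors. For both genes tumor was clearly lower than liver in M48 (-0.78 and -1.02) and higher in M60 (1.14 and 0.61). The means were 0.01 for Abcg5 (95% interval -0.67 to 0.69, adjusted p = 0.981) and -0.18 for Abcg8 (95% interval -0.74 to 0.38, adjusted p = 0.602), and these intervals leave room for changes in either direction. Mylip, a ligase that sends the LDL receptor to degradation and answers to LXR, was at 6.64 (M24), 7.10 (M48), 6.77 (M50) and 6.70 (M60) in adjacent liver and at 6.27, 6.82, 6.42 and 6.65 in the tumors. It was lower in tumor in all 4 mice, and the difference of -0.26 (SE 0.0951, 95% interval -0.49 to -0.03, adjusted p = 0.0822) passed the threshold only with quantile normalization (adjusted p = 0.0491) or with arrays centred on their medians (0.0419).

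A pattern seen once the values were known is the order of the mice. In adjacent liver 15 of the 18 enzymes ran M24, M60, M50, M48 from high to low, an order that 5.39% of all tested genes had, and Scap and Stard4 had it too. Set against each gene's adjacent mean, the median enzyme level in adjacent liver was 0.82 (M24), 0.12 (M60), -0.10 (M50) and -0.78 (M48). In the tumors it was 2.12 (M24), 1.87 (M60), 1.32 (M50) and 0.51 (M48), the same order at a higher level. M24 was the highest adjacent sample for 16 of the 18 enzymes (21.9% of all tested genes) and M48 the lowest for 16 (34.2%), with both at once for 15 (10.9%). Among the tumors M48 was lowest for 16 (23.7%), and M24 highest with M48 lowest for 15 (7.38%).

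The spread between mice was thus as wide as the step between tissues. The range over the 4 mice had a median over enzymes of 1.50 in adjacent liver and 1.61 in tumor, beside 0.35 and 0.34 over all tested genes. For 15 of the 18 enzymes the tumor of M48 was below the adjacent liver of M24, which was so for 48.7% of all tested genes; Mvk, Sqle and Lss were the exceptions. Of the 29 genes, 3 (Abcg5, Abcg8 and Mylip) had M48 highest and M24 lowest in adjacent liver, a share near the 10.2% of all tested genes. The median of Abcg5 and Abcg8 against their adjacent means was -0.78 (M24), -0.12 (M60), 0.00 (M50) and 0.90 (M48) in adjacent liver. In the tumors it was -1.04 (M24), 0.76 (M60), -0.06 (M50) and 0.00 (M48), so M24 was again lowest but M60 was highest.

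The adjacent sample of M48 also had the highest macrophage (9.32 over 8 markers) and stellate (7.93 over 8) list means of the 4 adjacent samples. The lymphocyte (4.58 over 8) and cycling cell (4.38 over 5) list means were highest there too, but lay below the value of the filter. The cholangiocyte list mean of M48 (5.42 over 4) was highest within a range of 5.29 to 5.42. Krt7, Krt19 and Sox9 of that list were not highest in M48. The endothelial list mean was highest in M24 (7.77) and was 7.69 in M48. The hepatocyte list mean was lowest in M48 (13.43 over 6 markers) within a range up to 13.61, though Fgb and Ahsg were highest there. The part of these cells in the order of the mice was not tested. Without M48 the median difference over the enzymes was 1.54, and 21 of the 29 genes rose.

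**Figure D3:**
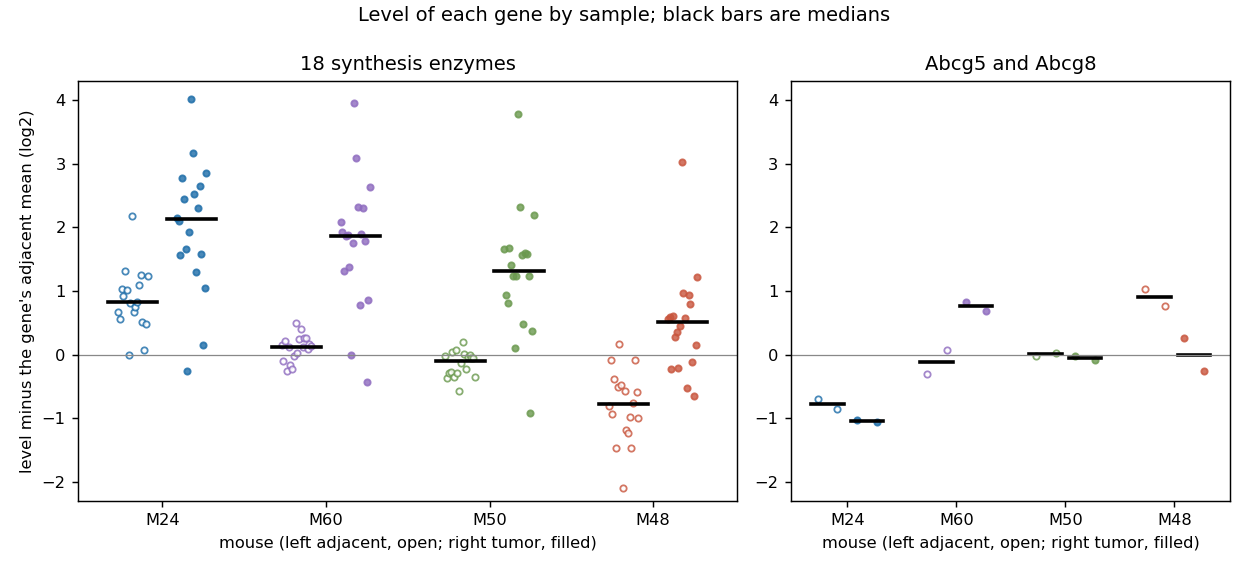
Level of each gene minus that gene's adjacent mean (log2, vertical axis) by mouse, for the 18 enzymes (left) and for Abcg5 and Abcg8 (right), with adjacent liver open, tumor filled and black bars for medians. The enzyme medians step down from M24 to M48 in both tissues, from 0.82 to -0.78 in adjacent liver and from 2.12 to 0.51 in tumor, while those of Abcg5 and Abcg8 in adjacent liver step up from -0.78 to 0.90.

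Genes known as targets of SREBP factors, other than those above, mostly rose: 9 of 10 passed the test upward and none downward, with a median of 0.81. Of all 11963 tested genes, 16.3% rose and 15.7% fell. The list is not limited to targets of SREBP2 alone. Srebf1, which encodes the related factor SREBP1, fell by 0.71 (limma adjusted p = 0.0106) and was lower in tumor in every mouse. In the list of targets, the genes with the smallest p were as follows. Rdh11, a retinol dehydrogenase, was higher by 1.47 (adjusted p = 0.000441), Aldoc, an aldolase, by 1.32 (0.00469), Fads2, a fatty acid desaturase, by 1.19 (0.00237) and Tmem97, an ER protein that binds NPC1, by 0.92 (0.00333). Mmab, an enzyme of vitamin B12 metabolism, is named because it shares the interval printed above with Mvk. It was at 7.12 (M24), 5.85 (M48), 6.70 (M50) and 6.74 (M60) in adjacent liver and at 7.66, 6.73, 6.82 and 7.62 in the tumors, and rose by 0.60 (SE 0.147, adjusted p = 0.0224). The Mmab difference was smallest in M50 (0.11), where that of Mvk was 1.30.

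The genes that feed or use the pathway were mixed, beside 16.3% of all tested genes that rose and 15.7% that fell. Acss2, which rose, is counted both in the list of targets above and among the cofactor genes. Of 7 genes for its cofactors and electrons, 4 rose and 3 fell (median 0.28): Acly, which makes cytosolic acetyl-CoA, rose by 1.32 (adjusted p = 0.000487) and Cyb5r3, a cytochrome b5 reductase, by 0.64 (0.0069), whereas Cyb5b, a cytochrome b5 of the mitochondrial outer membrane, fell by 0.86 (0.00268) and Me1, a source of NADPH, fell by 0.67 (0.0113). Of 12 genes of the isoprenoid branch, 1 rose and 2 fell (median 0.07), no more than the 31.9% called over all tested genes. Pggt1b, a subunit of a geranylgeranyl transferase, rose by 0.34 (adjusted p = 0.0371), while Rabggta, a subunit of the Rab geranylgeranyl transferase, fell by 0.34 (0.0249) and Icmt, a methyltransferase for prenylated proteins, fell by 0.32 (0.0242). Fnta, a subunit of farnesyl transferase, differed by -0.20 (adjusted p = 0.195).

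Of 9 genes for sterol sensing and degradation in the ER, 1 rose and 2 fell (median -0.04). These calls are near the share over all tested genes (31.9% in either direction). Tmem97 is in this list too, Pgrmc1, a membrane heme protein that interacts with cytochrome P450 enzymes, fell by 0.50 (adjusted p = 0.0248), and Rnf139, a ubiquitin ligase, fell by 0.28 (0.0445). Erlin1, which helps degrade HMG-CoA reductase, differed by 0.24 (adjusted p = 0.0794).

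Of 12 genes for sterol uptake, efflux and LXR (median -0.03), Abcg1, Scarb1 and Osbpl3 rose, and Lcat, Lrp1 and Srebf1 fell. The shares over all tested genes were 16.3% that rose and 15.7% that fell. Npc1l1, the transporter that takes up cholesterol from gut and bile, was at 4.49 (M24), 4.63 (M48), 4.48 (M50) and 4.42 (M60) in adjacent liver and at 7.28, 5.02, 6.98 and 6.66 in the tumors, where the adjacent levels lie around the filter value of 4.60. All tumors were above all adjacent samples, with M48 far below the other 3 tumors. Its adjacent mean of 4.51 is below the filter value, so Npc1l1 entered the test only through its tumor mean of 6.49. Its call is therefore not counted, and no size of change is read from it. Osbpl3, an oxysterol-binding protein relative, rose by 2.73 (adjusted p = 0.000119), while Lcat, which esterifies cholesterol in plasma, fell by 0.89 (0.00163) and Lrp1, a receptor for lipoprotein remnants, fell by 0.88 (0.000875).

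Of the 7 tested enzymes that turn cholesterol into oxysterols and bile acids, 6 fell and 1 rose. Of all tested genes, 15.7% fell and 16.3% rose. The median over the 8 measured genes of this list was -1.48, with Ch25h among them, which did not pass the filter. Cyp7a1, which catalyses the rate-limiting step of the classic bile acid route, was at 10.04 (M24), 9.06 (M48), 5.06 (M50) and 7.86 (M60) in adjacent liver and at 6.76, 4.70, 2.98 and 4.91 in the tumors. It fell by 3.17 (SE 0.327, adjusted p = 0.00116) and was lower in tumor in all 4 mice, with a wide overlap of the groups, and the adjacent samples spread over 4.98. Cyp7b1, of the acidic bile acid route, fell by 4.12 (adjusted p = 0.00118) and Cyp27a1, which starts that route, by 2.17 (0.00033), both with all tumors below all adjacent samples. Cyp39a1, which hydroxylates 24-hydroxycholesterol, rose by 0.76 (adjusted p = 0.00307).

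**Figure D4:**
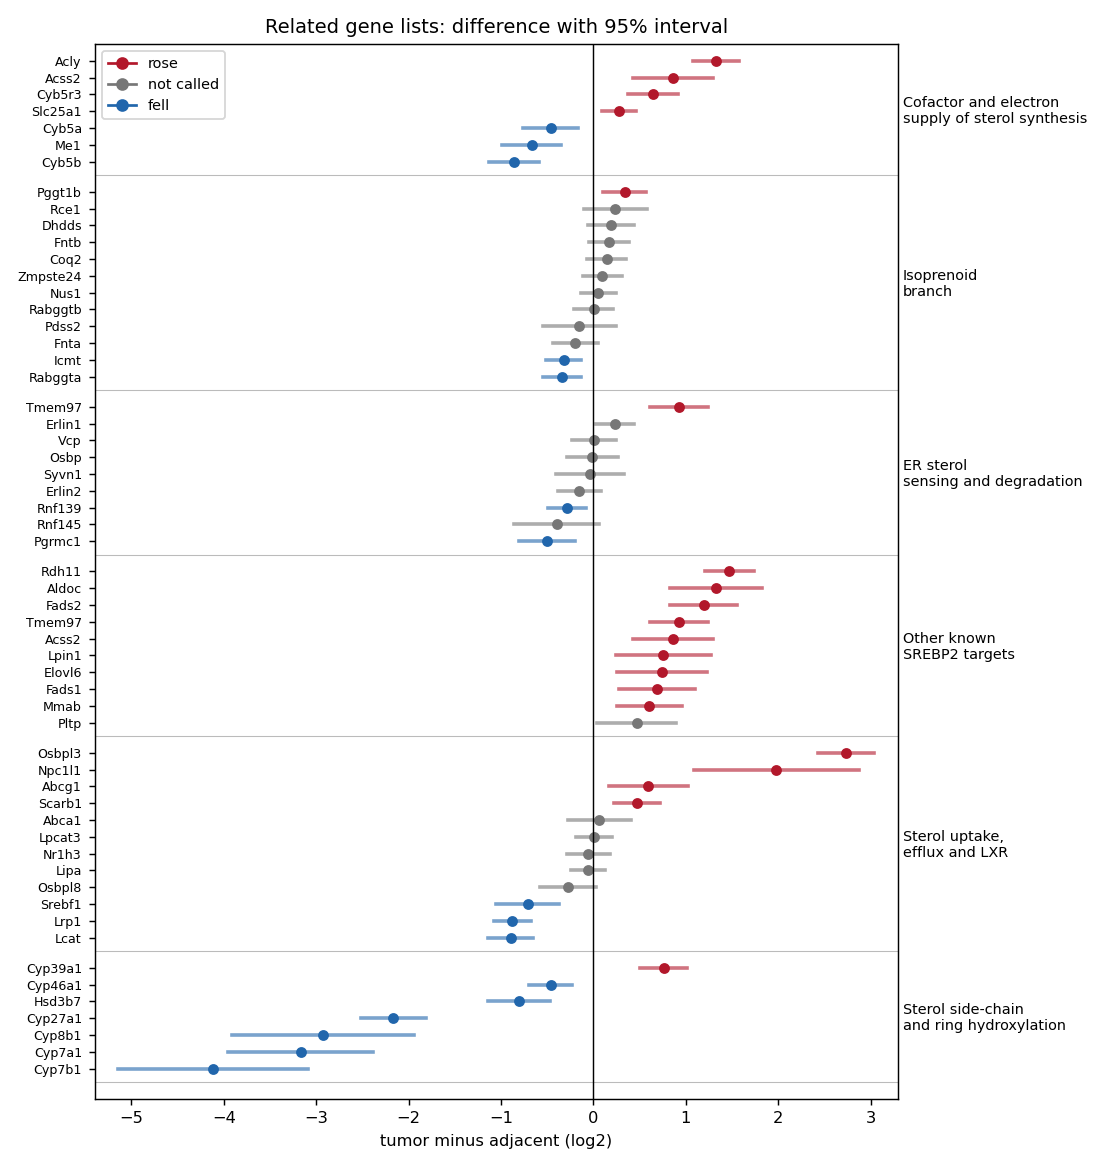
Tumor minus adjacent liver (log2, horizontal axis) for the tested genes of 6 related lists, with bars for the 95% interval and colour for genes that rose, fell or were not called. The list labelled other known SREBP2 targets, which is not limited to targets of SREBP2 alone, holds 9 of 10 genes that rose. The hydroxylation list holds 6 of 7 that fell, down to -4.12 for Cyp7b1. Over all tested genes, 16.3% rose and 15.7% fell. Npc1l1 is drawn, but it passed the filter only through tumor, so its call and size of change are not read.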

How the data were processed

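RNA of 4 tumor and 4 adjacent liver samples was measured on Affymetrix mouse gene arrays from 0.2 ug of total RNA per sample, per the labels' protocols. The authors deposited 1 table of log2 values for 28874 probes, from 1.92 to 14.5, with column medians from 4.89 to 5.01, and it was used as deposited. That the base is 2 was judged by their range. The submitters' processing notes name MAS5. How the background was corrected and the arrays normalized is not given in the sources used here. Detection calls and hybridisation batches were not analysed here.

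Genes were named from the array's annotation, in which 21789 probes have 1 gene symbol, 1621 have several and 5464 of the table's probes have no entry. For each gene, among probes with 1 symbol, the one of highest mean level across the 8 arrays was kept. The 40% of genes with the lowest mean were left out (below 4.60), and 11963 genes were tested with limma 3.58.1 in R 4.3.3 (lmFit, eBayes with a mean-variance trend, mouse as block, 3 residual degrees of freedom). P-values are two-sided, adjusted by Benjamini-Hochberg over all 11963 genes, with a threshold of 0.05; "rose" and "fell" are used only past it. The procedure was tested on simulated data.

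The pairing comes from the design text, which has both tissues from each mouse. The deviations of same-mouse samples from their group means correlated across genes by 0.313 (M24), 0.421 (M48), 0.0986 (M50) and 0.111 (M60). Between samples of different mice the values ran from -0.378 to 0.189. The adjacent samples of M50 and M60 correlated more with the tumor of M24 (0.129 and 0.189) than with their own tumors. For M50 and M60 these values therefore do not bear out the pairing. The replicates are separate animals.

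Members and lists were chosen with earlier results of these data known. All members are named, and of each of 6 related lists up to 4 genes with the smallest p. Further genes of these lists are named where their calls, a shared list or a shared interval are described. Promoter windows came from RefSeq, assembly GRCm38.p6. Alternatives were a fit without the mouse, no filter, a filter on the lowest 60%, no trend, quantile normalization, median centring, the mean of a gene's probes, and leaving out each mouse.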

Additional observations from a re-analysis of the deposited data

Results flagged for a closer look

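Of 87 groups of 4 values examined (the adjacent levels, tumor levels and differences of the 29 genes), 1 held a value far from its neighbours: the adjacent level of Mvd in M24, at 7.61, stood above the next highest of 6.43 and the lowest of 6.31, a gap that made up 0.912 of the range. Chance gives such a gap in about 1 of 20 groups, so 1 among 87 is no more than chance gives. M24 had the highest adjacent level of 16 of the 18 enzymes, and without M24 the median difference over the enzymes was 1.52.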

How the results depend on the processing

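Over 11 alternatives, the median differences of the enzymes (1.30 to 1.54) and of both arms kept their direction. Without the replicate block for the mouse, 12 of the 29 genes rose instead of 20; Pmvk, Idi1, Tm7sf2, Hsd17b7, Sc5d, Scap, Stard4 and Npc2 lost their calls, and the block changed no other call among the 29. Leaving out 1 mouse gave 18 to 21 genes that rose and 0 to 1 that fell, and 2316 (without M60) to 3476 called genes of all tested instead of 3819, with 1 animal fewer. Quantile normalization gave 2 members that fell (Npc1 and Mylip) and median centring 3 (Npc1, Ebp and Mylip). The median of the handling genes was -0.37 to 0.10 without 1 mouse, positive without M48, and Insig1 minus Insig2 was -0.25 to 0.39, positive without M48. Differences near 0 changed sign for Ggps1 (-0.20 to 0.0044 with 1 mouse left out, positive without M48), Abcg5 (-0.37 to 0.27, negative without M60, and -0.046 with median centring) and Abcg8 (-0.44 to 0.10, positive without M48). The cause was not tested. Of the single-gene comparisons, 288 were unchanged in direction and side of the threshold, 22 lost the call, 5 gained it and 4 changed sign. Soat1 minus Soat2 was not run. Detection above background could not be tested, so whether low levels such as those of Npc1l1 in adjacent liver lie above it is not known.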
